A study of Mus musculus with 5 samples.

Results

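The interferon-stimulated antiviral genes are genes that cells switch on when they sense interferon, and their products detect viral nucleic acids, block the making of viral RNA and protein, or amplify the response itself. A list of 44 such genes was examined in mouse bone marrow, and 42 of them had at least 1 named probe on the array. Ifi44 and Herc6 had none and were not analysed here. All probes annotated to a gene were taken, 88 in total, and the probe with the highest mean signal over the 5 arrays stood for the gene. Of the 42 genes, 40 were above a signal of 64 on at least 1 array and 31 were above it on all 5 arrays. For comparison, 8879 of the 19057 genes with a probe were above it on at least 1 array.

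Total bone marrow came from both tibias of male BALB/c mice aged 7 to 8 weeks, which had received 4 Gy of gamma rays to the whole body as 1 dose. It was collected on day 3, 7, 11 or 21 afterwards, written as days after irradiation (DAI). Sham-irradiated mice, called 0 DAI, were the control, and they also were BALB/c males of that age with no transgene or other agent named. There was 1 array for each of the 5 times, and how many mice each array holds is not clear from the methods, which speak both of several mice per time and of RNA from individual mice. No value therefore has a replicate error and no test between times was possible. The marrow was not sorted, so a lower signal from fewer cells of a type cannot be told apart from less RNA per cell. Signals are background-subtracted bead intensities on a linear scale with a mean of 535.7 on every array. A signal under 64 was set to 64, the floor. The log2 ratio of a time to 0 DAI was taken unless both signals were under the floor, and with 1 of them under it the ratio is a bound, written as at least or at most. A gene is called higher or lower at a log2 ratio of 1 or more, or -1 or less, which is 2-fold. All ratios to 0 DAI share the 0 DAI array, and an unusual value there would shift all 4 ratios of a gene the same way.

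As background, type I interferons bind the receptor chains Ifnar1 and Ifnar2, which activate the Janus kinases Jak1 and Tyk2. These phosphorylate Stat2, which joins Irf9 in a complex that binds the interferon-stimulated response element (ISRE) in promoters of antiviral genes. Interferon gamma acts through its own receptor and a different element, the gamma-activated site (GAS). In bone marrow, interferons are known to act on hematopoietic stem cells as well as on mature blood cells.

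The list was highest at 11 DAI. At that time, a ratio could be taken for 37 members, and 35 of them were higher than at 0 DAI by 2-fold or more, against 6.00% of the 8304 genes with a ratio, and none was lower, against 5.21%. The median log2 ratio over the 37 members was 2.07, and that of all genes was 0.12. At 3 DAI, 12 of 34 members were called higher (5.56% of all genes) and none lower (4.19%), and the medians were 0.58 for members and 0.12 for all genes. At 7 DAI, 1 of 35 was called higher (4.09%) and none lower (3.40%), and the medians were 0.22 for members and 0.11 for all genes. At 21 DAI, 5 of 35 were called higher (2.56%) and 1 lower (3.69%), and the medians were 0.32 for members and 0.17 for all genes. The members' signals thus did not follow a steady course. The share called higher was above that of all genes at 3 DAI, near it at 7 DAI, far above it at 11 DAI and above it again at 21 DAI. The 1 call at 7 DAI was Oas1g, whose ratio is a bound. At 21 DAI, 4 of the 5 higher calls lay within 0.05 of the limit.

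**Figure D1:**
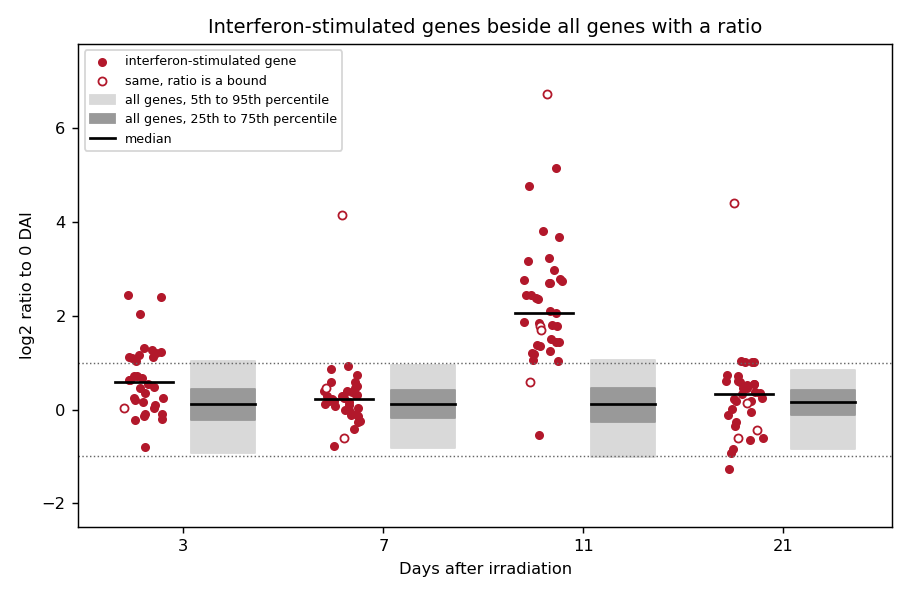
Each point is the log2 ratio to 0 DAI of an interferon-stimulated gene at 3, 7, 11 or 21 DAI (x axis, days after irradiation), with open points for bounds, and the grey boxes beside them span the 5th to 95th and the 25th to 75th percentiles of all genes with a ratio. Black lines are medians, which for the members were 0.58, 0.22, 2.07 and 0.32, and dotted lines mark 2-fold.

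Some of these counts include members that had a ratio only because they were above the floor on the irradiated array. When only the 33 members above the floor at 0 DAI were counted, 32 were higher at 11 DAI (5.48% of all such genes) with a median of 2.10, and 12 were higher at 3 DAI (4.14%). Of the 40 members above the floor on at least 1 array, 36 had their highest signal at 11 DAI, or 90%, against 26.4% of all 8879 genes. Oas1a, Ifih1 and Rtp4 were above the floor at 11 DAI alone, so their highest array was fixed by that limit. Of the 31 members above the floor on all 5 arrays, 30 were highest at 11 DAI, against 27.7% of the 7129 genes above it on all 5. The 4 of the 40 that were highest elsewhere were Ifi27 and Mx1, highest at 3 DAI, Oas1c, highest at 7 DAI, and Parp9, highest at 21 DAI. The second highest array was 3 DAI for 22 members, 21 DAI for 10, 7 DAI for 5 and 11 DAI for 3. Of all 8879 genes, it was 3 DAI for 1985, 21 DAI for 2622, 7 DAI for 1478, 11 DAI for 1548 and 0 DAI for 1246. The second signal was itself under the floor for Mx1, Oas1c and Parp9 at 11 DAI, Oas1a and Rtp4 at 7 DAI and Ifih1 at 3 DAI. When all 8304 genes were ranked by their log2 ratio at 11 DAI, 8 of the first 20, 17 of the first 50 and 24 of the first 100 were members. At 3 DAI, 0 of the first 50 and 3 of the first 100 were members. That ranking holds bounds as well as measured ratios. Among measured ratios alone, 10 of the first 20 and 18 of the first 50 at 11 DAI, and 3 of the first 50 at 3 DAI, were members.

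**Figure D2:**
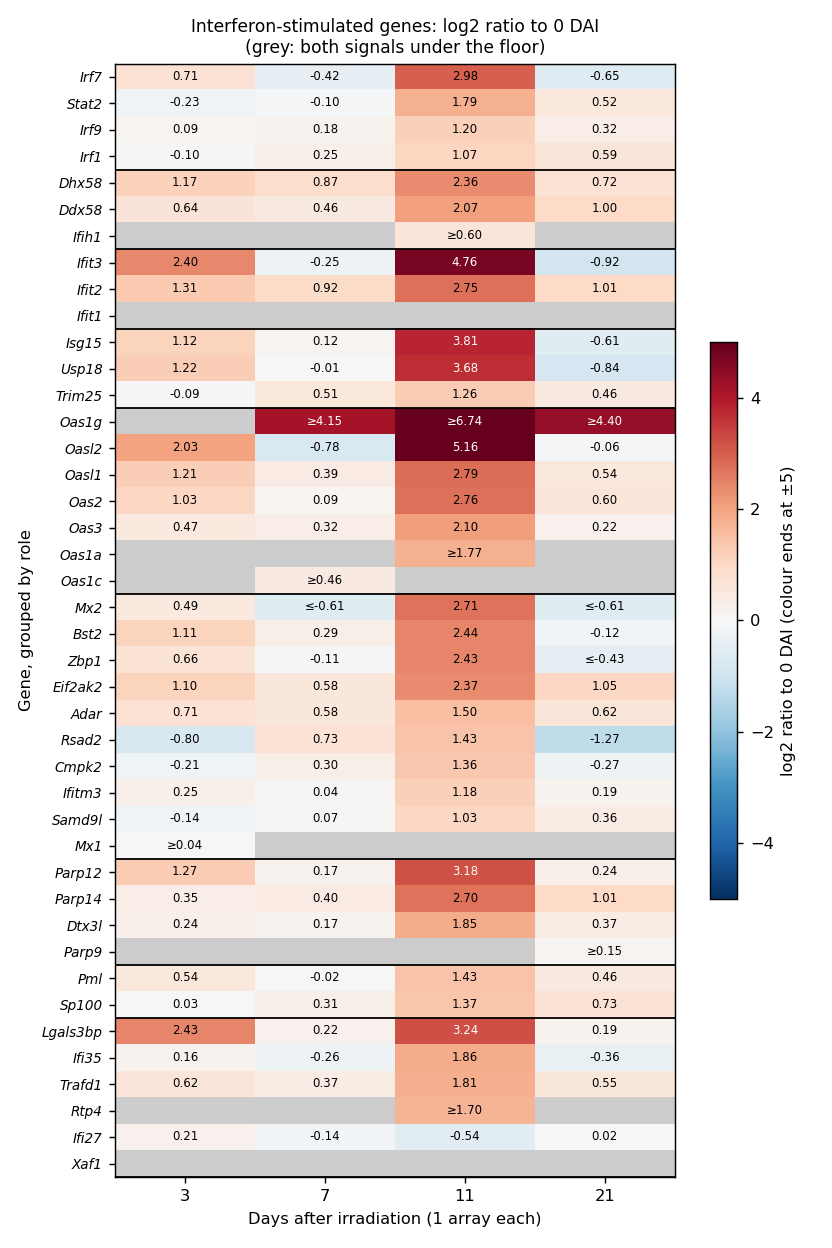
Log2 ratio to 0 DAI of the 42 members with a probe (y axis, grouped by role and sorted by the 11 DAI ratio) at 3, 7, 11 and 21 DAI (x axis, 1 array each). Red is higher and blue is lower than at 0 DAI, grey cells have both signals under the floor, and the sign before a value marks a bound. The 11 DAI column is red throughout except for Ifi27 at -0.54 and the 5 grey cells.

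The members fell into few time courses by their calls. By the probes used, 20 members were higher at 11 DAI alone, or 50% of the 40 above the floor on at least 1 array, against 3.55% of all 8879 such genes: Oas1a, Oas3, Rsad2, Mx2, Irf1, Irf7, Irf9, Stat2, Zbp1, Adar, Ifi35, Ifitm3, Cmpk2, Dtx3l, Trafd1, Trim25, Rtp4, Samd9l, Pml and Sp100. Another 10, or 25%, were higher at 3 and 11 DAI and at no other time, against 1.08% of all such genes: Ifit3, Isg15, Usp18, Oas2, Oasl1, Oasl2, Dhx58, Bst2, Parp12 and Lgals3bp. Ifit2 and Eif2ak2 were higher at 3, 11 and 21 DAI, Ddx58 and Parp14 at 11 and 21 DAI, and Oas1g at 7, 11 and 21 DAI. With other probes, Sp100 and Trim25 were also higher at 21 DAI. Other measured probes fell within 2-fold for Ifit2 at 21 DAI, at 0.77, and for Oasl1 at 3 DAI, at 0.67. Irf1 at 11 DAI was at 0.94 with another probe and at 1.27 and 1.17 with further ones. The calls of these genes at those times thus depended on the probe. No member was higher at 3 DAI and not at 11 DAI, and Ifi27 was the only member with a larger log2 ratio at 3 DAI than at 11 DAI.

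The promoters of the members were searched for the core letters of the elements named above. Members are known interferon-stimulated genes, so a share of matches above that of all genes is not independent of how they were chosen. RefSeq promoter windows (GRCm38.p6, 250 bases before to 50 bases after the start site) were found for 34 of the 44 members by gene ID. The ISRE core was searched on both strands as the letters GAAA, any 2 bases and GAAA again, and at least 1 match was present in 14 of the 34 members, or 41.2%, against 3.44% of all 32851 windows and 3.99% of the 27025 genes with a window. The GAS core TTCNNNGAA, whose letters read the same on both strands, matched in 8 of the 34, or 23.5%, against 8.30% of all windows and 9.55% of genes. The stretches printed here are those of the 4 members with the largest measured log2 ratio at 11 DAI among those with an ISRE core match, and capitals mark the matched letters. They lie at chr19:34583343-34583446 on the + strand for Ifit3, chr4:156200845-156200926 on the - strand for Isg15, chr8:71537557-71537632 on the - strand for Bst2 and chr17:78882535-78882564 on the - strand for Eif2ak2, each written 5′ to 3′ along its gene.
Ifit3: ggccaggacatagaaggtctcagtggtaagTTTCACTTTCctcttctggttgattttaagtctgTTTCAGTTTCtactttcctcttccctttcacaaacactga
Isg15: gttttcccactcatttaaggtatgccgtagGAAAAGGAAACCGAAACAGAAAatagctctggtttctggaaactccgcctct
Bst2: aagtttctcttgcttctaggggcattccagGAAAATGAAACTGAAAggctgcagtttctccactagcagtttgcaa
Eif2ak2: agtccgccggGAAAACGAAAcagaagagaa

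Ifit3 had 2 separate matches, starting at positions -156 and -122 from the start site and read on the opposite strand, so they appear as TTTC, 2 bases and TTTC. Isg15 had 3 matches that overlap, from position -78 to -57, which makes 1 run of repeated GAAA units. Bst2 had 2 overlapping matches from -130, and its GAS core match at -136 overlaps them. The match of Eif2ak2 lay after the start site, at position 19, so it is in the transcribed part. Among the members with a ratio at 11 DAI, 11 of the 12 with an ISRE core match were called higher, and their log2 ratios had a median of 2.08. Of those with a window and no match, 17 of 17 were higher, with a median of 1.81. Over all genes with a ratio, 6.00% were called higher at 11 DAI. The member with a match that was not called was Ifih1, whose ratio is a bound. Nearly all members were called, so these counts cannot show whether a match and a call go together. Oasl2, with the largest measured ratio of the list, had no match of either core in its window. A match is a description of letters and was not tested as a binding site.

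The transcription factors of the list carry the interferon signal to the genes. All 4 were higher at 11 DAI (6.00% of all genes), and 0 of the 4 were past 2-fold at 3, 7 or 21 DAI. Of all genes, 5.56%, 4.09% and 2.56% were higher and 4.19%, 3.40% and 3.69% lower at those 3 times. So 0 of 4 is near the background there. Irf7, which is itself induced by interferon and drives further interferon genes, had signals of 297, 486, 222, 2339.6 and 189.8 at 0, 3, 7, 11 and 21 DAI. Its log2 ratio was 2.98 at 11 DAI and -0.65 at 21 DAI, so the 21 DAI signal was the lowest of the 5. Stat2, which binds Irf9 in that complex, had signals of 207, 176, 193, 714 and 297, with a log2 ratio of 1.79 at 11 DAI. Irf9, the DNA-binding part of the same complex, had 1157, 1234, 1309, 2657 and 1449, and its 0, 3, 7 and 21 DAI signals lay close together below the 11 DAI one. Irf1, a factor shared by the type I and gamma responses, had 3744, 3486, 4452, 7836 and 5621, which gave 1.07 at 11 DAI and 0.59 at 21 DAI.

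The cytosolic RNA sensors recognise viral RNA. Ddx58, which encodes RIG-I, had signals of 175, 272, 241, 733 and 350.3 at the 5 times, and its log2 ratios were 2.07 at 11 DAI and 1.00 at 21 DAI. Dhx58, a related helicase that modulates the other sensors, had 334, 752, 611, 1721 and 552, with ratios of 1.17 at 3 DAI and 2.36 at 11 DAI. The 4 irradiated arrays were all above the 0 DAI array for both genes. Ifih1, which encodes the sensor MDA5, was above the floor at 11 DAI alone, where its signal was 96.7, and its log2 ratio was at least 0.60, a bound that does not show on which side of 2-fold it lay.

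The IFIT proteins bind foreign RNA and hinder its translation. Ifit3 had signals of 169, 891, 142.5, 4595 and 89.5 at 0, 3, 7, 11 and 21 DAI. Its log2 ratios at these times, in the order 3, 7, 11 and 21 DAI, were 2.40, -0.25, 4.76 and -0.92, so a high array was followed by one at or below the 0 DAI level both times. Ifit2 had 142.4, 352, 270.2, 958 and 287 at 0, 3, 7, 11 and 21 DAI. All 4 irradiated arrays were above the 0 DAI array for Ifit2, with a log2 ratio of 2.75 at 11 DAI and 1.01 at 21 DAI. The probe of Ifit1 was under the floor on all 5 arrays.

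Isg15 encodes a small protein that is attached to others like ubiquitin, and Usp18 removes it and also damps receptor signaling. The signals of Isg15 were 351, 764, 382, 4911 and 229 at the 5 times, and the log2 ratio at 11 DAI was 3.81. Usp18 had 530.5, 1234, 525, 6792 and 297 and a log2 ratio of 3.68 at 11 DAI. Both genes were higher at 3 and 11 DAI, near the 0 DAI signal at 7 DAI and lowest of all at 21 DAI, with log2 ratios there of -0.61 for Isg15 and -0.84 for Usp18. Trim25, a ubiquitin ligase that activates RIG-I, had 1071, 1003, 1526, 2559 and 1468, and its log2 ratio at 11 DAI was 1.26.

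Most enzymes of the OAS family sense double-stranded RNA and make a messenger that activates an RNA-degrading enzyme. Of the 7 members, 6 had a ratio at 11 DAI, and all 6 were higher there (6.00% of all genes), at a median of 2.78 on the log2 scale. Oasl2 had signals of 264, 1079.6, 154, 9454 and 254, and the 11 DAI signal was 35.8-fold that at 0 DAI, the largest measured ratio of the list and rank 2 of the 8304 genes. Oasl1 had 521, 1208, 684, 3606 and 757, and Oas2 had 435, 886, 462, 2948 and 660.1. For Oasl1, Oasl2 and Oas2 the 3 DAI array was the second highest, with log2 ratios there of 1.21, 2.03 and 1.03. Oas3 had 132, 183, 165, 565 and 154, and was past 2-fold at 11 DAI alone, with 2.10. Oas1a was above the floor at 11 DAI alone, with a signal of 219 and a log2 ratio of at least 1.77, and Oas1c at 7 DAI alone, with 87.7.

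Oas1g had a time course of its own. The signals were 31.3, -12.6, 1135, 6853 and 1352 at the 5 times, so the 0 and 3 DAI arrays were under the floor. The log2 ratios to 0 DAI were at least 4.15, at least 6.74 and at least 4.40 at 7, 11 and 21 DAI, and the 11 DAI ratio ranked first of all genes. A second Oas1g probe had -8.0, 14.4, 459.7, 3368 and 617 at the 5 times, the same order of high and low arrays from 7 DAI on, while the other 3 probes annotated to Oas1g were at or below 69.97 on every array. Oas1g was the only gene of the 19057 that was under the floor at 0 and 3 DAI and above 8 times the floor at 7, 11 and 21 DAI. No gene had such a pattern for any other pair of arrays. The reverse, above 8 times the floor at 0 and 3 DAI and under the floor at 7, 11 and 21 DAI, was found for Atf3 alone, a stress-induced transcription factor with 1223, 1178, 28.0, 23.9 and 36.1. The mouse Oas1 genes are near-identical copies that lie side by side, so a probe may take up RNA of another copy and the values of Oas1a, Oas1c and Oas1g are uncertain in that respect. What sets the 0 and 3 DAI arrays apart for Oas1g was not tested.

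**Figure D3:**
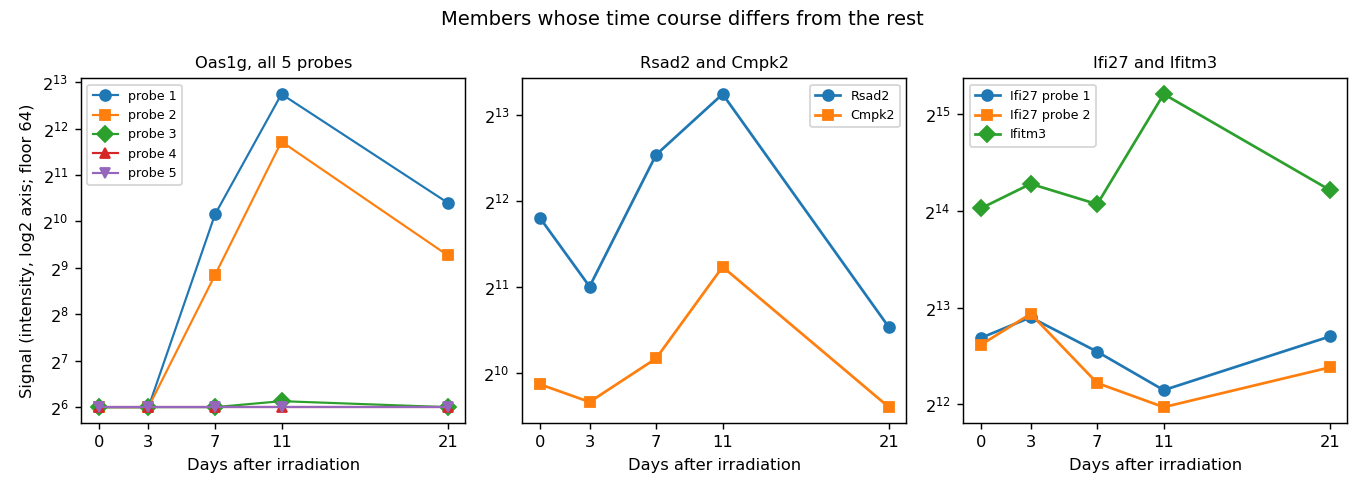
Signals (y axis, intensity on a log2 axis) against days after irradiation (x axis) for all 5 probes of Oas1g, with values under 64 drawn at 64, for Rsad2 and Cmpk2, and for Ifitm3 and the 2 probes of Ifi27. The 2 upper probes of Oas1g are at the floor at 0 and 3 DAI and highest at 11 DAI, and both probes of Ifi27 are lowest at 11 DAI.

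The antiviral effectors act on the virus cycle directly. Of the 9 with a ratio at 11 DAI, 9 were higher (6.00% of all genes), with log2 ratios between 1.03 and 2.71. Eif2ak2, which encodes the kinase PKR that stops translation on double-stranded RNA, had 509, 1093, 760.4, 2639.7 and 1052 at the 5 times. Its log2 ratios were 1.10, 0.58, 2.37 and 1.05 at 3, 7, 11 and 21 DAI. Bst2, which encodes tetherin and holds budding virus at the membrane, had 138, 299, 169, 751 and 127. Both were second highest at 3 DAI, and only Eif2ak2 was still past 2-fold at 21 DAI. Mx2, a dynamin-like GTPase, had 97.6, 137, 28.6, 638 and 47.0, so it was under the floor at 7 and 21 DAI and at a log2 ratio of 2.71 at 11 DAI. Zbp1, a sensor of Z-form nucleic acid that can trigger cell death, had 86.4, 137, 80.2, 467 and 53.7, and 2.43 at 11 DAI. Adar, which edits double-stranded RNA, was 2.83-fold higher at 11 DAI and not called at any other time. The probe of Mx1 was above the floor at 3 DAI alone, at 65.6.

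Rsad2 and Cmpk2 are neighbouring genes whose products, viperin and a nucleotide kinase, act in the making of a chain terminator of viral RNA synthesis. Rsad2 had signals of 3587, 2059, 5944, 9685 and 1485 at 0, 3, 7, 11 and 21 DAI, and Cmpk2 had 939, 814, 1155, 2413 and 781. Both ran from high to low in the order 11, 7, 0, 3 and 21 DAI, an order that no other member had. The log2 ratios of Rsad2 were -0.80, 0.73, 1.43 and -1.27 at 3, 7, 11 and 21 DAI, and it was the only member lower at 21 DAI. Those of Cmpk2 were -0.21, 0.30, 1.36 and -0.27, the same signs at smaller sizes.

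Ifitm3, a membrane protein that blocks virus entry, had 16688, 19892, 17192, 37848 and 19021.5, and its log2 ratio of 1.18 at 11 DAI stood out from 0.25, 0.04 and 0.19 at 3, 7 and 21 DAI. Samd9l, a growth-restraining antiviral gene, had 4167, 3774, 4381, 8488 and 5345. At 1.03, its 11 DAI ratio was the nearest to the limit among the members called higher. Ifi27, at -0.54, was the only member with a measured ratio that was not called.

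Parp9, Parp12 and Parp14 belong to the family that adds ADP-ribose to proteins, and Dtx3l is the ubiquitin ligase that pairs with Parp9. Parp12 had signals of 114, 275, 129, 1035 and 135 and log2 ratios of 1.27 at 3 DAI and 3.18 at 11 DAI. Parp14 had 306, 390.0, 402, 1991 and 616, with 2.70 at 11 DAI and 1.01 at 21 DAI. Dtx3l had 1224, 1446, 1379, 4401 and 1577, with 1.85 at 11 DAI. All 3 had their lowest signal at 0 DAI, and Parp9 had a signal above the floor at 21 DAI alone, at 71.0. The components of PML nuclear bodies, where antiviral proteins gather, were both higher at 11 DAI. Pml had 1975, 2863, 1949, 5328 and 2716, and Sp100 had 469.7, 481, 582, 1212 and 779, with a log2 ratio of 0.73 at 21 DAI. The other 2 detected probes of Sp100 were past 2-fold at 21 DAI, at 1.54 and 1.11, so its call there depended on the probe.

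Among the other interferon-induced genes, Lgals3bp, a secreted galectin-binding glycoprotein, had 616, 3331, 718, 5814 and 703. Its log2 ratio of 2.43 at 3 DAI was the largest of the list at that time, and it was 3.24 at 11 DAI, with the 7 and 21 DAI signals near that at 0 DAI. Trafd1, a feedback regulator of innate signaling, had 1369, 2105, 1766, 4784 and 2002, and 1.81 at 11 DAI. Ifi35 had 255, 285, 213, 927 and 198, and Rtp4 was above the floor at 11 DAI alone, with a signal of 208. Ifi27 was the exception of the list. Its signals were 6593, 7641, 5974.5, 4536.5 and 6667, so the 11 DAI array was the lowest, at a log2 ratio of -0.54, and its second probe had -0.64 there. The probe of Xaf1, a gene tied to cell death, was under the floor on all 5 arrays.

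**Figure D4:**
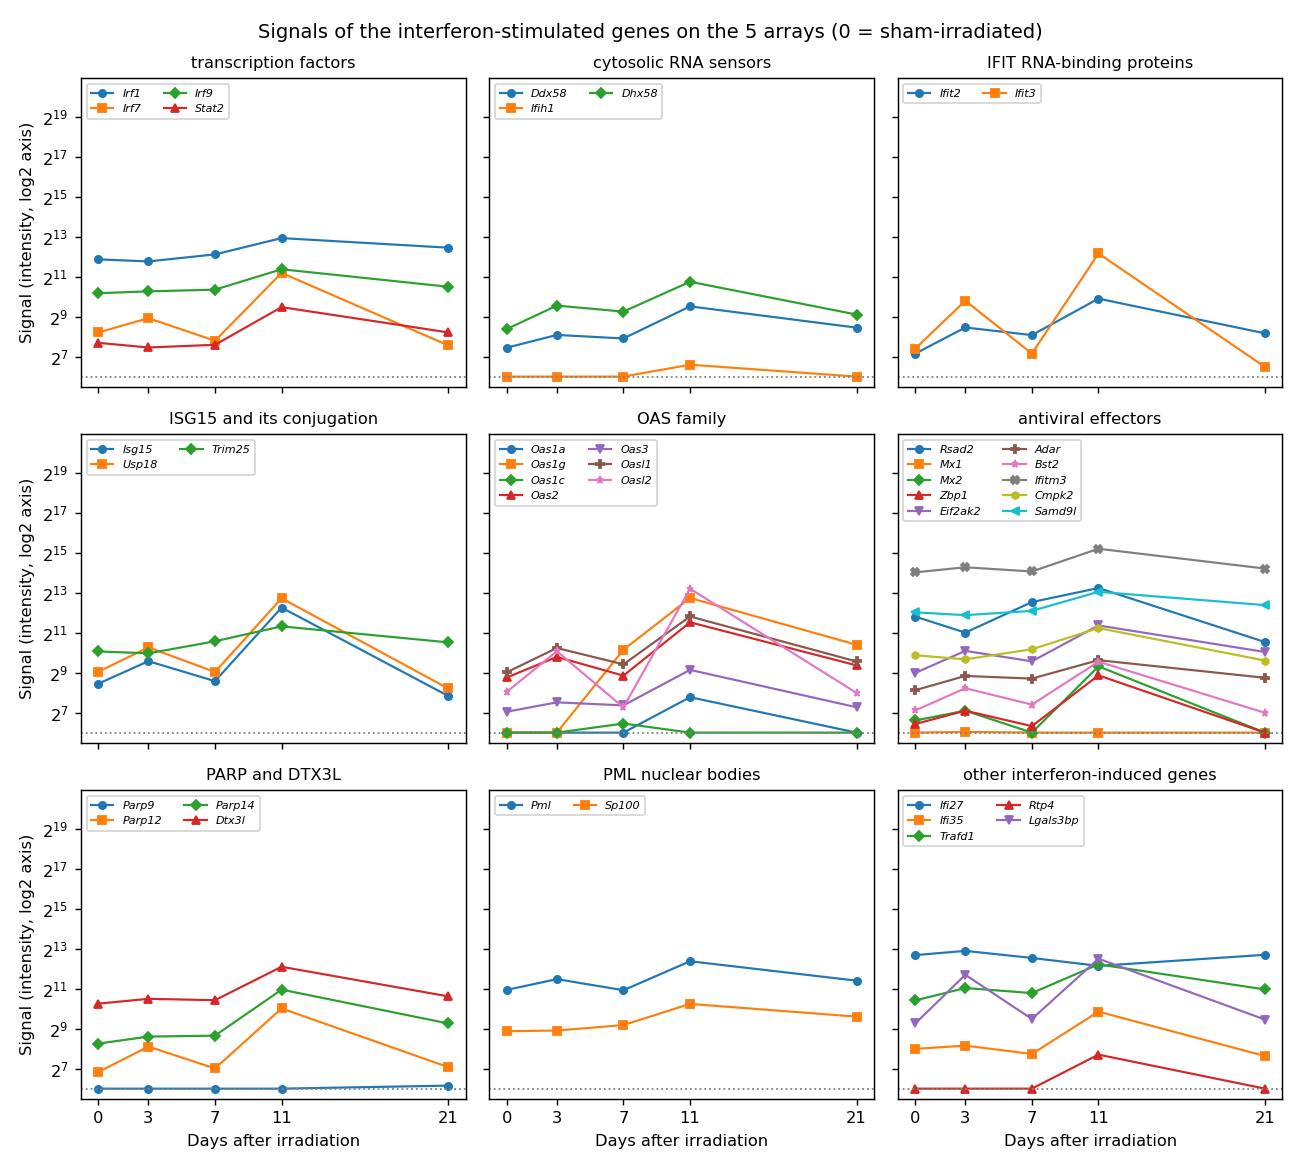
Signals (y axis, intensity on a log2 axis) of the members above the floor on at least 1 array, in 9 panels by role, against days after irradiation (x axis, 0 is sham-irradiated marrow, 1 array per time). The dotted line is the floor of 64, at which lower values are drawn. In most panels the lines peak at 11 DAI, and those of Ifit3, Isg15, Usp18, Oasl2 and Lgals3bp also have a smaller peak at 3 DAI.

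The size of the ratio varied with the signal of the probe at 0 DAI. The 0 DAI array sets the class and is also the base of the ratio. A low reading there would put a gene in the dimmer class and raise its ratio. The 23 members with a 0 DAI signal above the floor and under 1000 were at a median of 2.70 on the log2 scale at 11 DAI, and 12 of them were higher at 3 DAI. The 10 members with a signal of 1000 or more had a median of 1.23, with 9 higher at 11 DAI and 0 at 3 DAI. Over all genes, the medians at 11 DAI were 0.13 below 1000 and 0.03 from 1000 on. Calls were rarer among bright genes in general. At 3 DAI, 5.96% of all genes in the dimmer class and 0.729% of those in the brighter class were higher, so 0 of 10 members is near the background of that class, and at 11 DAI the shares were 7.28% and 2.11%. These classes sort probes by brightness and say nothing of how abundant the RNAs were relative to each other.

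Successive times do not use the 0 DAI array. At 7 DAI against 3 DAI, 2 of 36 members were called higher (7.13% of all genes) and 7 lower (6.07%), and the median log2 ratio was -0.28 for members and -0.03 for all genes. The lower ones were Oasl2 at -2.81, Ifit3 at -2.65, Lgals3bp at -2.21, Usp18 at -1.23, Irf7 at -1.13, Mx2 at -1.10 or less and Parp12 at -1.09, and the higher ones were Rsad2 at 1.53 and Oas1g at 4.15 or more. At 11 DAI against 7 DAI, 30 of 38 were called higher (5.75%) and none lower (9.21%), and the medians were 1.78 for members and 0.04 for all genes. At 21 DAI against 11 DAI, none of 38 was called higher (6.14%) and 27 were called lower (5.83%), and the medians were -1.70 for members and 0.05 for all genes. The change into and out of the 11 DAI array was largest for the same 2 genes, Oasl2 at 5.94 and -5.22 and Ifit3 at 5.01 and -5.68. The 11 members within 2-fold between 21 and 11 DAI included Irf1 at -0.48, Samd9l at -0.67 and Sp100 at -0.64.

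The genes above and below the members in the pathway were read from further lists. Of 19 interferon ligand genes, 18 had a probe, 16 or 17 of these were under the floor on each array, and none was past 2-fold at any time. Ifnb1, the type I interferon that many cell types make first, was at 19.1 at 11 DAI and -20.03 at 0 DAI, both under the floor. Ifng was above it at 3 DAI alone, at 71.8, and its signal was 34.2 at 11 DAI. Of the ligands, only Ifnab was above the floor at 11 DAI, at 114, against 184 at 0 DAI, so ligand RNA was hardly detectable on the array where the members were highest. At 11 DAI, 6.00% of all genes with a ratio were higher and 5.21% lower, so few or no calls in short lists are near those shares. Of 9 receptor and Janus kinase genes, 8 had a ratio and 0 were past 2-fold at 11 DAI, with a median of -0.21. The gene without a ratio was Ifnar1, whose probe was under the floor on every array. Ifngr1 was higher at 3 DAI, at 1.10, and Ifngr2 lower, at -1.57, and Ifnlr1, a chain of the interferon lambda receptor, was higher at 7 and 21 DAI, with signals of 950.0, 521, 3434, 797 and 1995 at the 5 times. The feedback inhibitor Socs3 had 525, 1470.3, 320.1, 735 and 598, so it was higher at 3 DAI. Of 17 sensors and adaptors upstream of interferon, 12 had a ratio at 11 DAI, none was higher and only the kinase Ikbke was lower, at a list median of 0.24. Mavs, the adaptor of RIG-I and MDA5, was at 0.96, just within 2-fold.

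Genes induced chiefly by interferon gamma were a separate list of 12. Of these, 8 had a ratio at 11 DAI and 5 were higher (6.00% of all genes), and the median over the 8 was 2.62. Gbp2, a guanylate-binding protein gene, had 292, 647, 533, 5813 and 596 at the 5 times, and Igtp, an immunity-related GTPase gene, had 589, 987, 878, 7094 and 661. Gbp3, Irgm2 and the chemokine gene Cxcl9 were the other higher ones, and the ratio of Cxcl9 is a bound because it was under the floor at 0 DAI. These 5 were thus high on the same array as the members. At 3 DAI, 4 of 8 were higher (5.56% of all genes), among them Gbp2 at 1.15, Gbp3 at 1.70 and Cxcl9 at 1.93 or more. Ciita alone was lower (4.19%), at -1.01. Irgm1 had 30451, 22059, 18709, 25256 and 17764, with no array above that at 0 DAI.

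**Figure D5:**
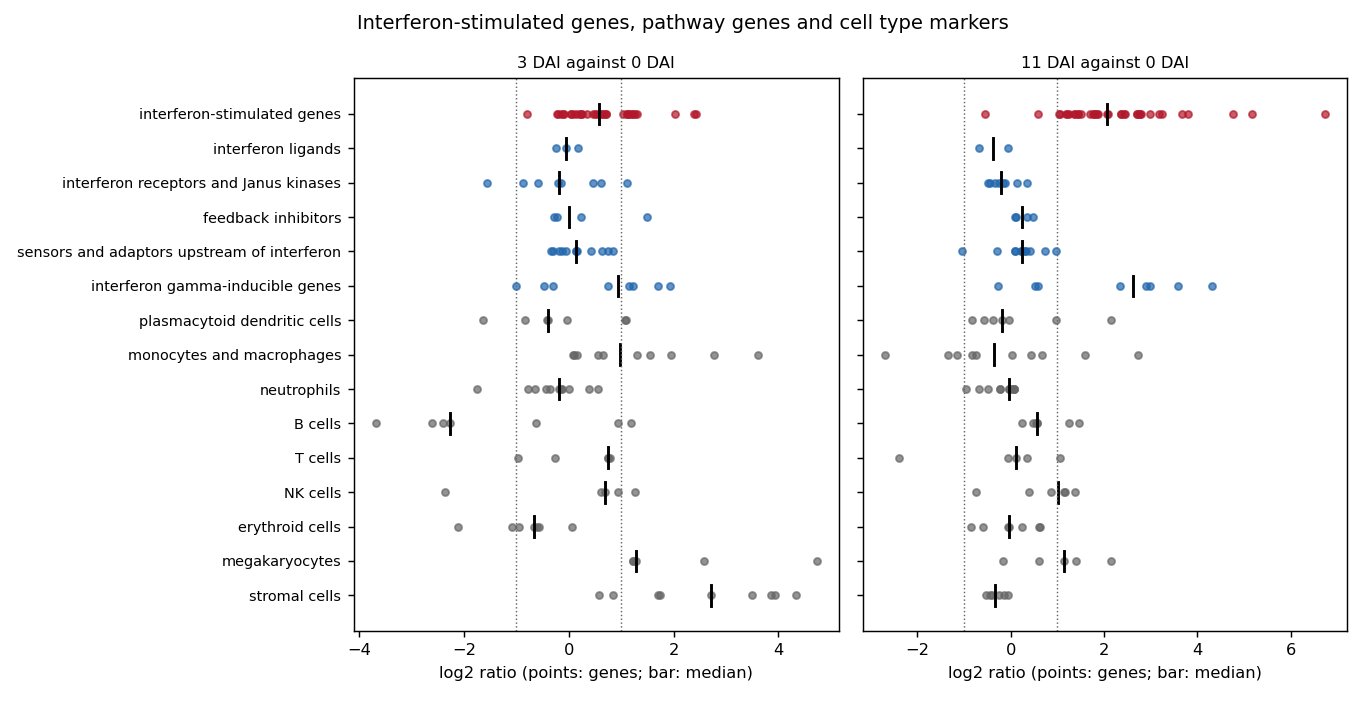
Log2 ratios (x axis) of the interferon-stimulated genes in red, of pathway lists in blue and of cell type marker lists in grey (y axis) at 3 DAI and 11 DAI, each against 0 DAI. Points are genes with a ratio, black bars are medians and dotted lines mark 2-fold. At 11 DAI the interferon-stimulated and the interferon gamma-inducible genes have the highest medians, at 2.07 and 2.62.

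The tissue label was checked against marker genes. At 0 DAI the summed signals were 376134 for 11 neutrophil genes, 90163 for 8 erythroid genes, 19606 for 8 B cell genes and 25245 for 10 monocyte and macrophage genes, so genes of these marrow lineages were present. Not every marker was detected. Pax5, of the B cell list, and Epb4.2, of the erythroid list, were under the floor on all arrays, and the macrophage markers C1qa, C1qb and Fcgr1 were under it at 0 DAI, where Ly6c1 alone gave 20114 of the monocyte and macrophage sum. Marker lists moved on the arrays where the members were higher, and their part in the members' values was not tested. Over all genes with a ratio, 6.00% were higher and 5.21% lower at 11 DAI. At that time, 3 of 6 NK cell markers with a ratio were higher. They were Klra3, at 1.37, and Ncr1 and Eomes, at 1.15 and 1.17 or more. Ncr1 and Eomes were under the floor at 0 DAI, so they had a ratio only through irradiated arrays. The median of 1.01 includes these bounds. The summed signal of the 9 NK probes was 19827 at 11 DAI and 24402 at 0 DAI, but without Prf1, which had 10771 at 11 DAI and 18139.9 at 0 DAI, the other 8 summed to 9056 at 11 DAI and 6262 at 0 DAI. The 6 megakaryocyte probes summed to 5405 at 11 DAI and 2405 at 0 DAI, with 3 of 5 genes higher at 11 DAI. B cell markers summed to 27624 at 11 DAI and 19606 at 0 DAI, with 2 of 7 higher, Ms4a1 and Cd22. Of 7 plasmacytoid dendritic cell markers with a ratio, 1 was higher at 11 DAI, Ly6d, and the median was -0.19, with Siglech, a defining marker of these interferon-making cells, at 547 at 11 DAI and 967 at 0 DAI. Of 10 monocyte and macrophage markers, 2 were called higher and 3 lower at 11 DAI, and the median of the 10, which includes bounds, was -0.36. The higher ones were C1qb and Fcgr1, both under the floor at 0 DAI, so they too had a ratio only through irradiated arrays. Of 11 neutrophil markers, 0 were past 2-fold at 11 DAI. Ltf had the highest signal of the 11 DAI array, at 50747, and Mpo, Ngp and S100a8 lay not far below it. A 2-fold rise of such bright probes may not be visible. Of 5 T cell markers with a ratio, 1 was higher at 11 DAI, Cd2, at 1.05, and 1 was lower, Cd3d, at -2.40, and the median was 0.10. The summed signal of the 9 T cell probes was 6752 at 11 DAI and 10204 at 0 DAI.

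Other marker lists were called at 3 DAI, where 5.56% of all genes with a ratio were higher and 4.19% lower. Of 9 stromal markers, 7 were higher at 3 DAI, and their summed signal was 17448 at 3 DAI and 1989 at 0 DAI. All 5 megakaryocyte genes with a ratio were higher, with a sum of 9234 at 3 DAI and 2405 at 0 DAI. Of the monocyte and macrophage markers, 5 of 10 were higher, with 31913 at 3 DAI and 25245 at 0 DAI. Among these higher markers, Col1a1, Gp1bb, C1qa, C1qb and Fcgr1 were under the floor at 0 DAI, so they had a ratio only through irradiated arrays. B cell markers were lower in 4 of 7 genes, with 9813 at 3 DAI and 19606 at 0 DAI, but Vpreb1, of B cell precursors, was higher, at 1.19, and Igll1, of the same stage, was at 0.93. Which of the 12 members higher at 3 DAI followed these cells was not tested. At 11 DAI the stromal sum was 1680.2, near the 1989 at 0 DAI, with 0 of 6 genes higher (6.00% of all genes). At 21 DAI, 6 of 7 erythroid markers were lower (3.69% of all genes), with a sum of 62029 at 21 DAI and 90163 at 0 DAI.

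The other probes of the members were read as a check. There were 46, of which 15 were under the floor on all 5 arrays. At 11 DAI, 30 of them had a ratio, 24 were higher and none was lower, and 25 of the 30 gave the same call as the probe that stood for the gene. The same call was given by 19 of 20 at 3 DAI, 21 of 21 at 7 DAI and 17 of 21 at 21 DAI, and no probe gave the opposite call at any of these times.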

How the data were processed

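Total RNA of bone marrow was copied to biotin-labelled cRNA and hybridized to Illumina MouseWG-6 BeadChips by the authors, 1 array for each of the 5 times. The deposited intensity values, read with GenomeStudio 2010.2 per the labels, are linear, have the background subtracted and were scaled by them to a common array mean (average normalization). On each array, 14742 to 16168 of the 45281 probes were below 0. They were used without further scaling. Another deposited table, of unscaled signals with detection p-values in 10 columns, was left out because its columns matched no sample label. Gene symbols came from the platform annotation, with 34885 probes carrying 1 symbol. Of these, the probe with the highest mean signal stood for each gene. A floor of 64 was set, and genes were called at 2-fold. With 1 array per time there is no replicate error, so no test was run and none of the values has an SD, and that number of arrays limits the precision. The call step was tested on simulated data.

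The members, the pathway and marker lists and the rule for named genes were chosen with earlier results of these data known. Signals in every array are given for the 15 members with the highest mean signal, the 10 with the largest ratio at 11 DAI and Ifi27. For the other members not higher there, only signals above the floor are given. Further members were added after their values were seen, as were Atf3 and the members described for their order of arrays. Promoters came from RefSeq (GRCm38.p6). Alternatives were scaling by quantiles or by the median, a higher floor (100), a pseudocount (50) in its place, means over a gene's probes, calls at 3-fold and at 1.5-fold, filters on low signals and other baselines. Python 3.11.15, numpy 2.4.6, pandas 2.3.3 and matplotlib 3.10.9 were used.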

Additional observations from a re-analysis of the deposited data

Results flagged for a closer look

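Rsad2 had a log2 ratio of 1.43 at 11 DAI and of -1.27 at 21 DAI, both against 0 DAI, so the 2 irradiated arrays lay on opposite sides of the control by more than 2-fold. The difference was not tested, since each time has 1 array.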

How the results depend on the processing

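No paired analysis was possible because the labels give every time the same replicate number and 1 array. With 1 array per time, no array could be left out of a group. Of the 114 counts and medians recomputed under the alternatives, 100 stayed within the limits set for a change. Those limits let a median within 2-fold change sign. The members' median log2 ratio, taken against the other 3 irradiated arrays, turned negative for 3 DAI (-0.21), 7 DAI (-0.64) and 21 DAI (-0.48). These reversed medians are counted among the 100, and their baselines hold the 11 DAI array. For 11 DAI the median stayed positive (1.69). At 11 DAI the number of members higher lay between 25 (3-fold size rule) and 36 of those with a ratio. The 5 members higher at 21 DAI became 1 under quantile normalization, median scaling, a pseudocount of 50 and the 3-fold rule, 2 with the mean signal over probes, 10 with the 1.5-fold rule and 0 against the other 3 irradiated arrays. The 12 higher at 3 DAI became 3 with the 3-fold rule and 2 against the other 3 irradiated arrays, a baseline that holds the 11 DAI array. Against the 7 and 21 DAI arrays, a baseline added after the data were seen, 9 were higher at 3 DAI, 7 of them among the 12, and 29 at 11 DAI. The 1 higher at 7 DAI, Oas1g, became 4 with the 1.5-fold rule, 0 among genes above the floor at 0 DAI and 0 against the other 3 irradiated arrays. The 9 past 2-fold at 7 against 3 DAI became 4 and 15 with the 3-fold and 1.5-fold rules. Some log2 ratios past 2-fold against 0 DAI changed sign against the other 3 irradiated arrays. At 3 DAI they were those of Dhx58 (-0.15), Eif2ak2 (-0.23), Ifit2 (-0.26), Oas2 (-0.12) and Oasl1 (-0.0278). At 21 DAI they were those of Ddx58 (-0.0523), Eif2ak2 (-0.30), Ifit2 (-0.65) and Parp14 (-0.14). Ratios within 2-fold also changed sign, such as that of Adar at 3 DAI (0.71 to -0.19), and are not all listed. At 11 DAI, Irf1 and Samd9l fell within 2-fold under median scaling, at 0.95 and 0.91, and Rtp4 with the mean signal over probes, at 0.81. Against the other 3 irradiated arrays, Adar (0.87), Irf1 (0.82), Samd9l (0.93) and Trim25 (0.97) were within 2-fold at 11 DAI, and against the 7 and 21 DAI arrays Adar (0.90), Irf1 (0.65), Irf9 (0.95), Samd9l (0.81), Sp100 (0.85) and Trim25 (0.77). Ifih1 was past it with a pseudocount, at 1.29. Over all genes, median scaling gave 389 higher and 446 lower at 3 DAI, against 471 and 355, 225 and 362 at 7 DAI, against 338 and 281, 351 and 539 at 11 DAI, against 498 and 433, and 126 and 385 at 21 DAI, against 212 and 306. It moved the median of all genes at 11 DAI to 0.00, against 0.12. The cause of these changes was not tested. Signals near the floor limit what can be said of Ifit1, Ifih1, Mx1, Oas1c, Parp9 and Xaf1.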
